A study of Mus musculus with 7 samples.

Results

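The BCL2 family of cell death was read in 10 genes, taken by symbol from a table of 54532 genes: the pro-survival genes Bcl2, Bcl2l1, Mcl1 and Bcl2a1b, the effector genes Bax and Bak1, and the BH3-only genes Bcl2l11, Bbc3, Pmaip1 and Bid. All 10 were in the table and all passed the filter on low counts. The study is about the Hippo pathway kinase MST1 in follicular helper T (Tfh) cells, and gene expression was measured by bulk RNA sequencing of cells described as Tfh cells sorted from spleen. Of the 7 libraries, 4 came from mice with the genotype Mst1 knockout, written Mst1∆CD4 in the titles, and 3 from WT mice, and animals of both genotypes had been sensitised with ovalbumin (OVA) by the intraperitoneal route. The Cre driver, age, sex and strain are not in the labels, and whether each biological replicate is 1 animal is not said there. The P-values below weigh the difference between the groups against the spread between these libraries.

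Proteins of this family meet at the outer mitochondrial membrane. BAX and BAK, once activated, form openings in that membrane through which cytochrome c leaves to start the caspase cascade, and BCL2, BCL-XL, MCL1 and A1 hold them in check. BH3-only proteins relay stress signals by binding the pro-survival proteins, and some of them also activate BAX and BAK directly. In lymphocytes the balance between BIM and BCL2 sets how long resting and activated cells live, and germinal centre cells are known to need MCL1.

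Library totals lay between 16789158 and 18375275 counts. MST1 is the product of Stk4, whose counts gave 293 ± 7.34 CPM in knockout libraries (SD, n = 4) and 327 ± 10.1 CPM in wild-type libraries (n = 3), with an edgeR adjusted p of 0.225. CPM here are counts scaled to a common depth, with library sizes adjusted by TMM. Which exons of Stk4 the knockout removes, and in which cells, is not in the labels. Transcripts of the remaining exons, or of cells in which the gene was not deleted, would still be counted. The part of either in the Stk4 level was not tested. Lists of cell type markers moved with the genotype, and no listed marker of any type was at 0 in any library. All 10 T cell markers fell, with a summed level of 150 to 289 CPM in knockout libraries and 559 to 878 CPM in wild-type libraries. Of 8 Tfh markers 7 fell, with summed levels of 145 to 255 CPM in knockout and 360 to 456 CPM in wild-type libraries. Of 8 B cell markers 2 fell, and their sum was 1326 to 3211 CPM in knockout libraries, against 4036 to 5429 CPM in wild-type libraries. All 10 erythroid markers rose, with a sum of 741 to 1669 CPM in knockout libraries and 141 to 193 CPM in wild-type libraries. Neutrophil markers summed to 9681 to 14026 CPM in knockout and 14720 to 18227 CPM in wild-type libraries (1 of 10 higher, 4 lower), and monocyte and macrophage markers to 7116 to 11790 CPM in knockout and 4955 to 8348 CPM in wild-type libraries (2 of 10 higher, 1 lower), both well above the T cell sums. B cell sums were also above the T cell sums in both genotypes, and erythroid sums were above them in knockout libraries, so the label of sorted Tfh cells is in doubt and each value below is that of a mixture of cells. Of the other lists, 2 of 6 plasma cell markers and 2 of 8 NK and CD8 T cell markers were lower, 2 of 7 dendritic cell markers were higher and 1 lower, and 2 of 6 megakaryocyte markers were higher. In such bulk samples fewer cells of a type and less RNA per cell cannot be told apart, and the part of these shifts in the values below was not tested.

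No member of the family passed the test. Of the 10 genes, 0 had an edgeR adjusted p under 0.05, where 15.5% of the 15795 genes tested did (8.71% higher and 6.83% lower in knockout libraries). At an unadjusted p under 0.05 there were 4 members, Bak1, Bcl2, Pmaip1 and Bid, where 31.8% of all genes reached it. DESeq2 called 1 member, Bak1, where it called 17.7% of genes. With limma-voom and sample quality weights 2 were called, Bak1 higher and Bcl2 lower, where 24.7% of genes were called. The authors' deposited table has 1 member under an adjusted p of 0.05, Bak1, and 12.5% of its genes. It rests on the same counts, and its values for the members are close to those of the DESeq2 fit. For Bak1 the adjusted p is 0.0164 there and 0.0163 in DESeq2, so the deposited call is not a separate result. The median log2 fold change was -0.06 over the 10 members and -0.002 over all genes tested, and the median size of the fold change, sign left aside, was 0.20 for members and 0.27 for all genes. In TMM-scaled CPM the groups did not overlap for 1 member, Bcl2, and for 30.0% of all genes tested. In CPM by library total they did not overlap for 4 members, with Bcl2l1 and Bak1 higher and Bcl2 and Pmaip1 lower in knockout libraries, and for 29.3% of all genes. For 6 of the 10 the 95% interval lay within a 1.5-fold change in either direction.

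**Figure D1:**
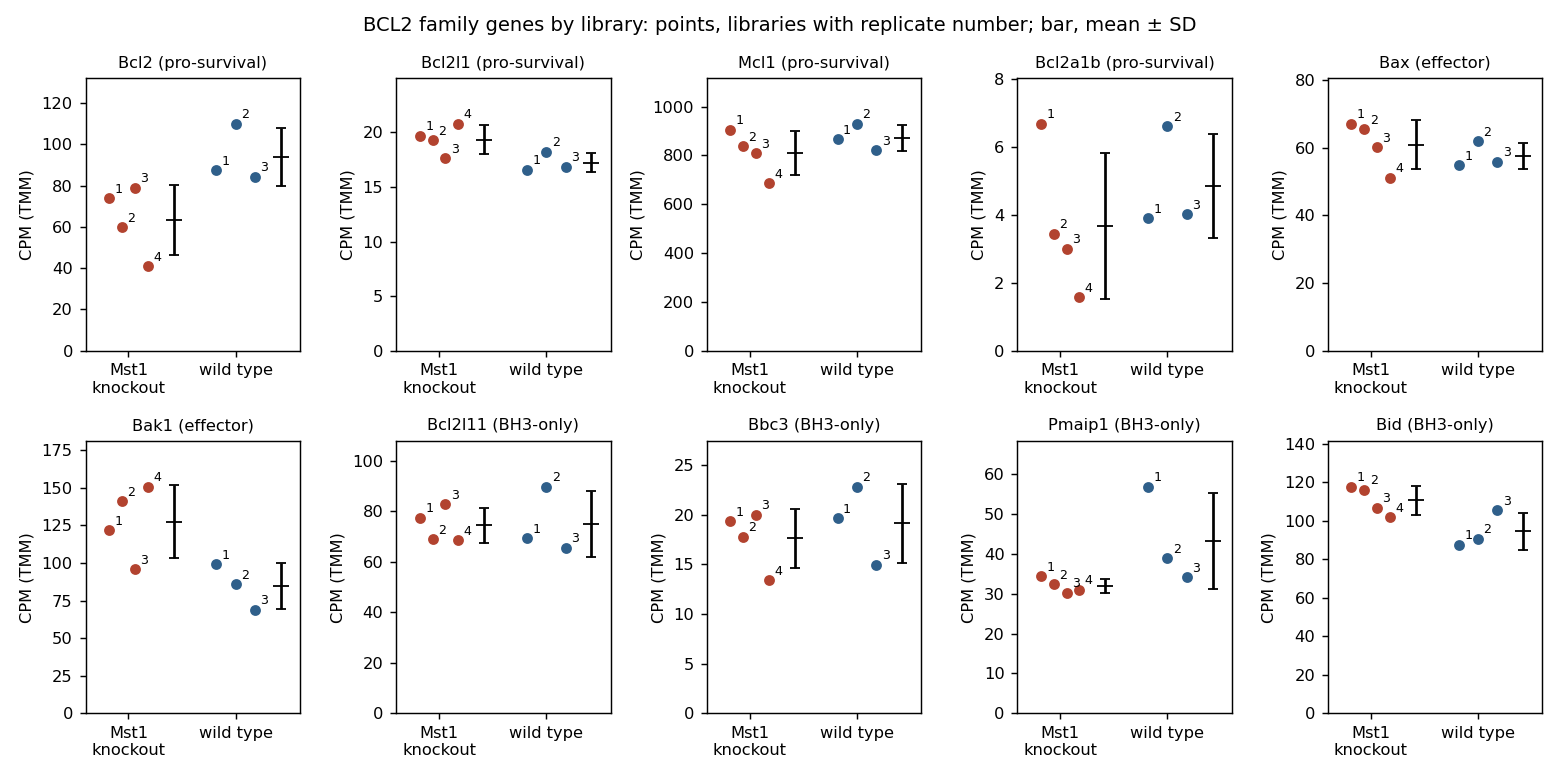
TMM-scaled CPM of the 10 BCL2 family genes, one panel per gene, with knockout libraries on the left (red, n = 4) and wild-type libraries on the right (blue, n = 3); digits are replicate numbers and black bars the mean ± SD. Each vertical axis starts at 0. Only the Bcl2 panel shows groups without overlap; Bak1 is crossed by knockout replicate 3 and wild-type replicate 1.

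**Figure D2:**
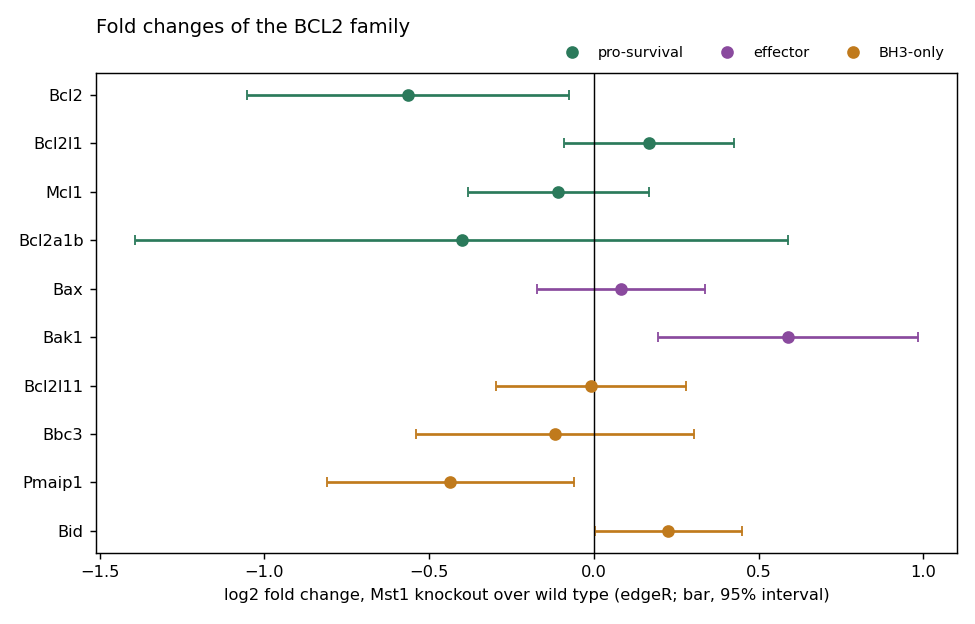
Log2 fold change of each member, knockout over wild type, with its 95% interval from edgeR, not adjusted for the number of genes tested; colours give the role in the family. Bak1 lies highest at 0.59 and Bcl2 lowest at -0.56, and the widest interval is that of Bcl2a1b.

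The effector genes had unlike fold changes, a difference between genes that was not tested. Bak1 (ENSMUSG00000057789, chromosome 17, 27019810 to 27029009, minus strand, GRCm38) had 2061, 2530, 1721 and 2691 counts in knockout replicates 1 to 4, against 1624, 1478 and 1220 counts in wild-type replicates 1 to 3. Scaled, this was 122, 141, 95.8 and 151 CPM in the knockout libraries and 99.1, 85.8 and 69.0 CPM in the wild-type libraries. The other knockout libraries were above every wild-type library, while knockout replicate 3 was just below wild-type replicate 1. In CPM by library total all knockout libraries were above all wild-type libraries (exact permutation p = 0.0571). The means were 127 ± 24.2 CPM in knockout (SD, n = 4) and 84.6 ± 15.1 CPM in wild-type libraries (n = 3), a log2 fold change of 0.59 (SE 0.17, 95% interval 0.19 to 0.98) with an edgeR adjusted p of 0.0519. An exact permutation test on the CPM gave p = 0.0857, where the smallest p that 4 against 3 libraries allow is 0.0286.

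Bax (ENSMUSG00000003873, chromosome 7, 45461697 to 45466898, minus strand) had 67.0, 65.4, 60.1 and 51.1 CPM in knockout replicates 1 to 4 and 54.8, 61.9 and 55.9 CPM in wild-type replicates 1 to 3. The groups overlapped throughout, and knockout replicate 4, the highest for Bak1, was the lowest of all 7 libraries for Bax. Its log2 fold change was 0.08 (SE 0.11, 95% interval -0.17 to 0.34, adjusted p = 0.656). On the FPKM scale, per gene length, Bak1 stood at 1.04 to 1.93 times Bax in knockout libraries and at 0.809 to 1.18 times Bax in wild-type libraries, ranges that overlap.

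The effector promoters are shown because these genes share a role in the family. The windows run from 250 bases before to 50 after the RefSeq start (GRCm38.p6), and capitals mark GGGCGG on either strand, the GC box that SP1 binds. The Bak1 start used by RefSeq lies 382 bases inside the deposited gene end. The Bak1 window is chr17:27028578-27028877 and the Bax window chr7:45466849-45467148, both on the minus strand and printed 5′ to 3′.
Bak1: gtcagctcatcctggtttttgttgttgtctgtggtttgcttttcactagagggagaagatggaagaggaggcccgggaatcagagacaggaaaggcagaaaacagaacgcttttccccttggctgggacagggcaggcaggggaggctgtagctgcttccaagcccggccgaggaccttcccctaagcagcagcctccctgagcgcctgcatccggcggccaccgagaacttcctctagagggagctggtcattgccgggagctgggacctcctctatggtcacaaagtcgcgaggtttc
Bax: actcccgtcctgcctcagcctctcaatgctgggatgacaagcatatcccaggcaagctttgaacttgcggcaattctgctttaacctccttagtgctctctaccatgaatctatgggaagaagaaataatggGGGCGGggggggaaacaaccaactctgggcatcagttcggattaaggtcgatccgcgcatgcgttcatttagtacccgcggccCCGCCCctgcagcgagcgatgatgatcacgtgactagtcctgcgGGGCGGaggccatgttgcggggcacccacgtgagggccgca
The Bak1 window held 0 GC boxes, 11 CpG dinucleotides and 58.3% G and C. The Bax window held 3 GC boxes, 19 CpG dinucleotides and 57.3% G and C, with 2 E-boxes (CACGTG, which reads the same on both strands) and 1 match to the p53 half-site consensus on either strand. Of all 32851 RefSeq promoter windows, 35.7% hold GGGCGG, 7.15% hold CACGTG and 8.36% hold a p53 half-site. Windows were read for 9 members, 14 in all, and none was read for Pmaip1. Of these, 10 windows of 7 members held GGGCGG while 0 held TATAAA (13.6% of all windows). The GATA motif AGATAA was in 1 of the 14 windows, one of Bcl2l1, and in 11.2% of all windows.

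Whether Bak1 was called depended on the processing. Its log2 fold change lay between 0.46 and 0.72 over 20 alternatives, and the adjusted p between 0.0163 and 0.165. It was called in 7 of the 20, among them DESeq2, limma-voom with sample quality weights, and edgeR with scaling to the library total (14.7% of genes called), without a filter (8.92%), among protein-coding genes alone (18.9%) and without knockout replicate 3 (16.4%). The log2 fold change in the authors' deposited table is 0.59 (adjusted p = 0.0164). Leaving out wild-type replicate 3, the lowest library for Bak1, gave 0.46 (adjusted p = 0.165). Ggnbp1, on the opposite strand across the whole of Bak1 in the deposited coordinates, had 88 to 198 counts in the 7 libraries and an edgeR adjusted p of 0.954. The strand setting of the counting is not given in the sources used here, so reads of the overlap could belong to either gene.

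**Figure D3:**
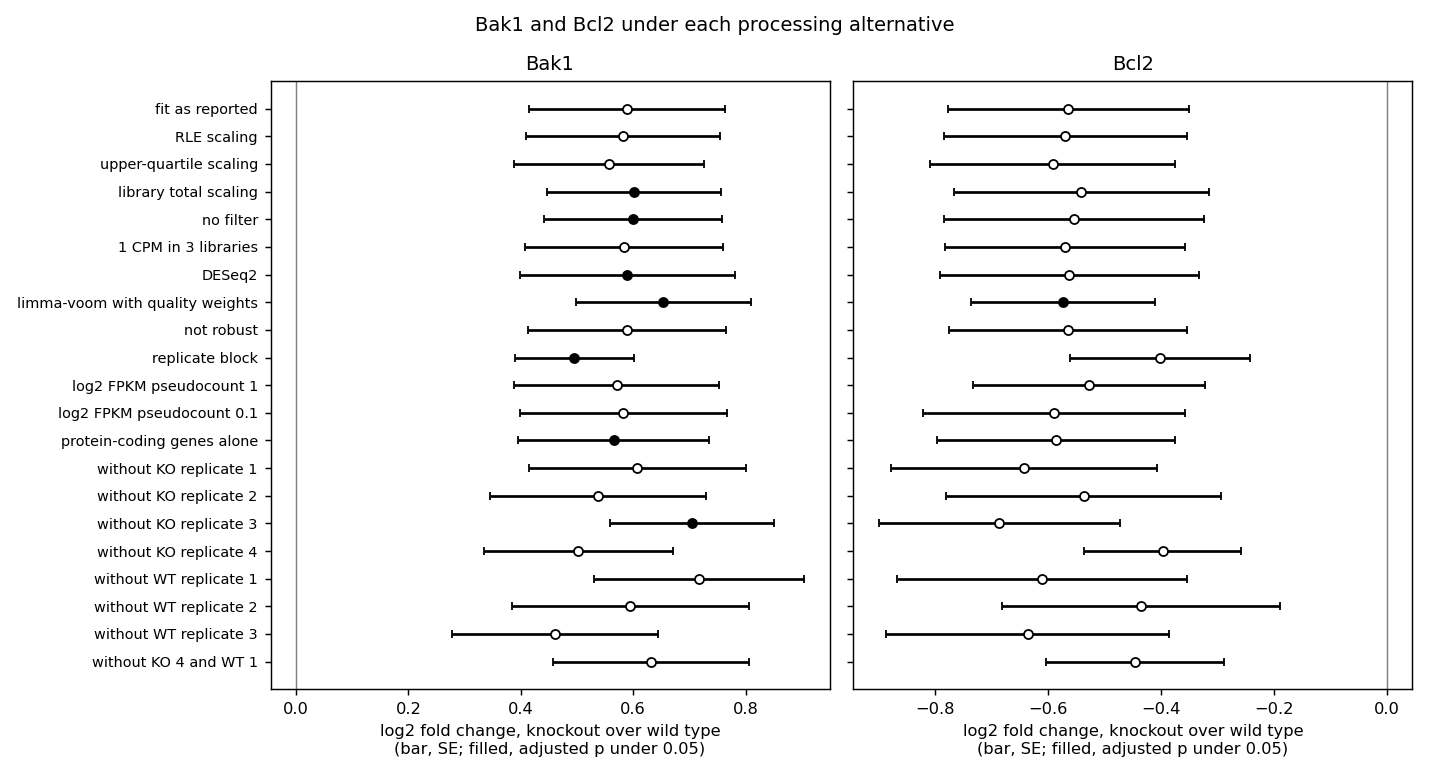
Log2 fold change of Bak1 (left) and Bcl2 (right), knockout over wild type, under the fit as reported and 20 alternatives; bars are the SE and filled points an adjusted p under 0.05. All 21 values of Bak1 lie above 0 and all of Bcl2 below 0, with 7 filled points for Bak1 and 1 for Bcl2.

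Among the libraries, Bak1 was highest in knockout replicate 4 at 151 CPM, which also had the highest erythroid sum (1669 CPM) and the lowest T cell sum (150 CPM). It was lowest among knockout libraries in replicate 3 at 95.8 CPM, where the erythroid sum was 1071 CPM and the monocyte and macrophage sum, 7116 CPM, the lowest of that genotype (9483 to 11790 CPM in the others). Lyz2 gave 4582 CPM of that sum, and the list's genes did not share an order, with Ccr2 lowest of that genotype in replicate 3 (589 CPM) and Csf1r highest (787 CPM). Knockout replicate 1 had the lowest erythroid sum of its genotype (741 CPM) and the highest monocyte and macrophage sum (11790 CPM), with Bak1 at 122 CPM. The part of these cells in the Bak1 values was not tested. Since no member was called, the rule for naming the genes most like a member named none. As an addition made after the values were seen, the nearest genes to Bak1 among 9738 with at least 10 CPM were Cd68, a lysosomal protein gene on the macrophage marker list, Ccdc86 and the co-chaperone gene Bag3. Their root mean square differences from Bak1 in centred log2 CPM over the 7 libraries were 0.08, 0.08 and 0.09. Cd68 had 109 to 152 CPM in knockout libraries and 75.6 to 114 CPM in wild-type libraries.

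Of the pro-survival genes, Bcl2 showed the lowest fold change. Bcl2 (ENSMUSG00000057329, chromosome 1, 106538178 to 106714274, minus strand) is the founding member, a guard of resting lymphocytes. It had 1251, 1078, 1420 and 733 counts in knockout replicates 1 to 4, or 74.0, 59.99, 79.0 and 41.1 CPM, against 1433, 1895 and 1491 counts, or 87.4, 110 and 84.3 CPM, in wild-type replicates 1 to 3. Every knockout library was below every wild-type library, also in CPM by library total and in FPKM. The means were 63.5 ± 17.0 CPM in knockout (n = 4) and 93.9 ± 14.0 CPM in wild-type libraries (n = 3), a log2 fold change of -0.56 (SE 0.21, 95% interval -1.05 to -0.08) that missed the threshold (edgeR adjusted p = 0.109). The exact permutation p on the CPM was 0.0571. Without knockout replicate 4, the lowest library, the log2 fold change was -0.40 (adjusted p = 0.0895). In the authors' deposited table Bcl2 has an adjusted p of 0.0709.

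The Bcl2 promoter is printed beside that of Bak1 because these are the members with the largest differences, in opposite directions. The window is chr1:106714241-106714540 on the minus strand, with GC boxes in capitals.
Bcl2: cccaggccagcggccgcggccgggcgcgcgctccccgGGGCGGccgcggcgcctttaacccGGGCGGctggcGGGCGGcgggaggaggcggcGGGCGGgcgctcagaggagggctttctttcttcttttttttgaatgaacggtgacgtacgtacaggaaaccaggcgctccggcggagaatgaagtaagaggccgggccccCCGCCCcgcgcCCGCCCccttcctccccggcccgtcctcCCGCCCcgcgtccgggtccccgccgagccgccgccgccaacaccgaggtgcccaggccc
It held 7 GC boxes, 44 CpG dinucleotides and 76.0% G and C, where the median of all promoter windows was 7 CpG dinucleotides and 52.7% G and C. No match of a motif in any of these windows says that a factor binds there.

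The sum of the B cell markers had the same order as Bcl2 among the knockout libraries. Not every marker did, as Cd79b and Ms4a1 were higher in knockout replicate 1 than in knockout replicate 3. Among the knockout libraries, Bcl2 ran from 79.0 CPM in replicate 3 through 74.0 and 59.99 CPM in replicates 1 and 2 to 41.1 CPM in replicate 4. In that order the B cell sum was 3211, 3175, 2446 and 1326 CPM. Wild-type replicate 2 was the highest of its genotype for both, at 110 CPM of Bcl2 and a B cell sum of 5429 CPM. The other wild-type libraries had the opposite order, with 87.4 CPM of Bcl2 and a B cell sum of 4036 CPM in replicate 1, and 84.3 and 4952 CPM in replicate 3. This order was noticed after the values were seen, and the part of the B cell and T cell shifts in the Bcl2 values was not tested.

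Mcl1 (ENSMUSG00000038612, chromosome 3, 95658788 to 95663176, plus strand), which encodes a short-lived guard needed by many blood cells, was the most abundant member by far. It had 906, 839, 809 and 686 CPM in knockout replicates 1 to 4 and 867, 930 and 822 CPM in wild-type replicates 1 to 3. The groups overlapped, with knockout replicate 4 lowest of all. The means were 810 ± 92.0 CPM (n = 4) for knockout and 873 ± 54.0 CPM (n = 3) for wild type, a log2 fold change of -0.11 (SE 0.12, 95% interval -0.38 to 0.17, adjusted p = 0.586).

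Bcl2l1 (ENSMUSG00000007659, chromosome 2, 152780668 to 152831728, minus strand) encodes BCL-XL, a guard of activated lymphocytes and of maturing red cells. Its CPM were 19.7, 19.3, 17.6 and 20.8 in knockout replicates 1 to 4, against 16.6, 18.2 and 16.9 in wild-type replicates 1 to 3. Only knockout replicate 3 was below a wild-type library, replicate 2, and in CPM by library total the groups did not overlap. The log2 fold change was 0.17 (SE 0.11, 95% interval -0.09 to 0.42, adjusted p = 0.357). The sum of 10 erythroid markers was 741 to 1669 CPM in knockout libraries and 141 to 193 CPM in wild-type libraries. The part of the erythroid shift in the Bcl2l1 values was not tested.

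Bcl2a1b (ENSMUSG00000089929, chromosome 9, 89199209 to 89207827, plus strand) is one of the copies of the A1 gene, an NF-kappaB target of activated lymphocytes and myeloid cells. Mouse carries several near-identical A1 genes, so its counts are uncertain. In the GENCODE M21 transcripts, 79.2% of the 50-base windows of Bcl2a1b also stand in a transcript of another gene, 57.6% in Bcl2a1d, 46.0% in Gm29094 and 41.1% in Bcl2a1a. Gm29094 overlaps Bcl2a1b on the same strand and had 0 to 2 counts in a library. The coding sequences have 519 bases, of which Bcl2a1b shares 513 with Bcl2a1d and 508 with Bcl2a1a. The first 60 coding bases, in the first coding exon on chromosome 9, hold 6 of the 12 positions at which these genes differ, and capitals mark those positions. They lie at chr9:88957051-88957110 (plus strand) in Bcl2a1a, chr9:89199360-89199419 (plus strand) in Bcl2a1b and chr9:88731660-88731719 (minus strand) in Bcl2a1d, in GENCODE M21 on GRCm38, and are shown because they set what a read can tell apart.
Bcl2a1a: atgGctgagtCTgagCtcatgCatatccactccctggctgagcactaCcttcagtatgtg
Bcl2a1b: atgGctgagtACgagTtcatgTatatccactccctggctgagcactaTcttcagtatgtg
Bcl2a1d: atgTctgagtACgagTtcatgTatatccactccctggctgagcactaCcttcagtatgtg
A 50-base read from most of the Bcl2a1b transcript would also match another gene, and longer or paired reads were not examined. How the authors counted reads that match several genes is not given in the sources used here.

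As counted, Bcl2a1b had 113, 62, 54 and 28 counts in knockout replicates 1 to 4 and 64, 114 and 71 counts in wild-type replicates 1 to 3. Knockout replicate 1 was close to the highest wild-type library in CPM (6.68 and 6.62), and the other knockout libraries, at 1.57 to 3.45 CPM, were below all wild-type libraries. The log2 fold change of -0.40 (SE 0.44, 95% interval -1.39 to 0.59, adjusted p = 0.574) hung on single libraries, at -0.85 when knockout replicate 1 was left out, -0.14 when knockout replicate 4 was, and -0.11 when wild-type replicate 2 was. Bcl2a1a stood at 12.7 ± 2.91 CPM in knockout and 5.97 ± 3.17 CPM in wild-type libraries, without overlap (log2 fold change 1.09, adjusted p = 0.0702). For Bcl2a1d the log2 fold change was 0.35 (adjusted p = 0.384). The sum of Bcl2a1a, Bcl2a1b and Bcl2a1d, which does not depend on how counted reads were divided among them, was 66.9, 43.6, 42.6 and 34.0 CPM in knockout replicates 1 to 4 and 41.1, 38.9 and 24.2 CPM in wild-type replicates 1 to 3 (exact permutation p = 0.314). Knockout replicate 1 was highest and wild-type replicate 3 lowest in that sum, and the groups overlapped.

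The BH3-only genes did not share a direction. Bcl2l11 (ENSMUSG00000027381, chromosome 2, 128126038 to 128162547, plus strand) encodes BIM, the main killer of lymphocytes deprived of survival signals and a target of FOXO factors. It had 77.5, 69.1, 82.8 and 68.7 CPM in knockout replicates 1 to 4 and 69.4, 89.8 and 65.6 CPM in wild-type replicates 1 to 3. The knockout libraries lay inside the wild-type range. The means of 74.5 ± 6.84 CPM (n = 4) in knockout and 74.9 ± 13.0 CPM (n = 3) in wild-type libraries gave a log2 fold change of -0.008 (SE 0.13, adjusted p = 0.973), and the 95% interval of -0.30 to 0.28 spans 0.81 to 1.22 times the wild-type level. The sign turned in 8 of 20 alternatives.

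Bid (ENSMUSG00000004446, chromosome 6, 120891930 to 120916853, minus strand) links death receptors to mitochondria once caspase 8 has cut its protein. It had 118, 116, 107 and 102 CPM in knockout replicates 1 to 4, against 87.6, 90.7 and 105 CPM in wild-type replicates 1 to 3. Wild-type replicate 3 lay above knockout replicate 4, and all other knockout libraries lay above all wild-type libraries. The log2 fold change of 0.23 (SE 0.10, 95% interval 0.004 to 0.45) did not pass (adjusted p = 0.152). Bid overlaps Bcl2l13 by 913 bases on the opposite strand, and Bcl2l13 rose (adjusted p = 0.0237), so with the strand setting unknown some of these reads could be of either gene.

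Pmaip1 (ENSMUSG00000024521, chromosome 18, 66458604 to 66465550, plus strand) encodes NOXA, a partner of MCL1 and a p53 target. Its CPM were 34.3, 32.4, 30.2 and 30.9 in knockout replicates 1 to 4 and 56.8, 38.8 and 34.1 in wild-type replicates 1 to 3. In these TMM-scaled CPM the groups overlapped, with knockout replicate 1 just above wild-type replicate 3 (exact permutation p = 0.0571). In CPM by library total the groups did not overlap, with an exact permutation p of 0.0286, the smallest this design allows. The knockout libraries were close together, with a coefficient of variation of 5.69%, and the wild-type libraries spread, at 27.8%, with replicate 1 far above the other two. The log2 fold change was -0.44 (SE 0.17, 95% interval -0.81 to -0.06, adjusted p = 0.106). Without wild-type replicate 1 it was -0.19 (adjusted p = 0.364), so 1 library sets its size.

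Bbc3 (ENSMUSG00000002083, chromosome 7, 16308393 to 16318205, plus strand) encodes PUMA, the p53 target that binds all pro-survival members. It had 19.3, 17.8, 19.98 and 13.4 CPM in knockout replicates 1 to 4 and 19.6, 22.8 and 14.9 CPM in wild-type replicates 1 to 3. The ranges overlapped (log2 fold change -0.12, SE 0.19, 95% interval -0.54 to 0.30, adjusted p = 0.705).

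Levels can be set against each other per gene length, in FPKM. These use a single length per gene, whichever of its transcripts are present, and the counts of Bcl2a1b are uncertain. Ranks, shares and ratios between genes are therefore approximate. Mcl1 had 235 ± 27.7 FPKM in knockout and 253 ± 15.5 FPKM in wild-type libraries, the highest of the 10 in every library. In knockout libraries the order went on with Bak1 at 52.4 ± 9.78, Bax at 38.3 ± 4.69, Bid at 30.9 ± 2.25 and Pmaip1 at 11.96 ± 0.71 FPKM, and these ranks were the same in all 4. Bcl2l11 at 9.19 ± 0.87 FPKM held rank 6 and Bbc3 at 8.22 ± 1.42 FPKM rank 7 in all 4 as well. By their means Bcl2l11, Bbc3 and Bcl2 at 6.88 ± 1.86 FPKM differed from the next by less than the larger SD of the pair, and Bcl2a1b at 4.46 ± 2.63 and Bcl2l1 at 4.18 ± 0.26 FPKM came last by mean. In wild-type libraries Bax at 36.1 ± 2.46 and Bak1 at 34.8 ± 6.05 FPKM did not differ beyond their spread. Bid at 26.4 ± 2.77 and Pmaip1 at 16.2 ± 4.41 FPKM came next. Bcl2 at 10.2 ± 1.52 FPKM held rank 6 in all wild-type libraries and rank 8 or 9 in all knockout libraries, but did not differ beyond its spread from Bcl2l11 at 9.24 ± 1.61 or Bbc3 at 8.92 ± 1.84 FPKM. Bcl2a1b at 5.87 ± 1.87 and Bcl2l1 at 3.72 ± 0.20 FPKM were lowest again.

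**Figure D4:**
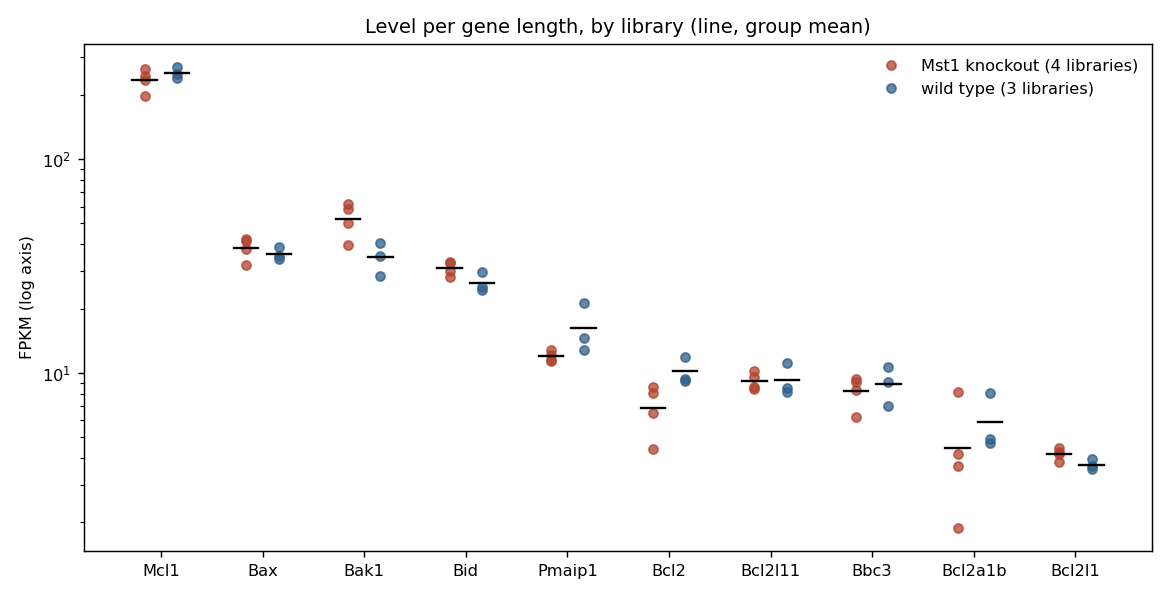
FPKM of each member on a log axis, knockout libraries (red, 4 libraries) to the left of wild-type libraries (blue, 3 libraries), with genes ordered by their wild-type mean and black lines at group means. Mcl1 is highest at 197 to 270 FPKM in all 7 libraries, and Bak1 stands above Bax in the knockout libraries.

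The make-up of the family by FPKM is given as a description, chosen after the values were seen and with no test. The pro-survival genes held 58.5% to 64.5% of the summed FPKM of the 10 members in knockout libraries and 66.0% to 68.4% in wild-type libraries. Mcl1 alone held 55.4% to 60.4% in knockout and 61.6% to 63.3% in wild-type libraries. The effectors held 19.9% to 26.3% in knockout and 16.9% to 18.5% in wild-type libraries, while the BH3-only share was 14.6% to 15.6% in knockout and 14.3% to 15.6% in wild-type libraries. Pro-survival and effector shares did not overlap between genotypes, and as parts of 1 sum they move against each other. Without Mcl1 the pro-survival share did overlap, at 6.78% to 11.5% in knockout and 11.4% to 14.95% in wild-type libraries. The ratios computed with Bcl2 did not overlap between genotypes, and Bcl2 by itself did not overlap in FPKM either. How often ratios of other gene pairs separate was not computed. The ratio of Mcl1 to Bcl2 was 27.4 to 44.8 in knockout and 22.6 to 26.6 in wild-type libraries. The ratio of Bak1 to Bcl2 was 4.61 to 14.0 in knockout and 2.97 to 4.31 in wild-type libraries. That of Bcl2l11 to Bcl2 was 1.19 to 1.91 in knockout and 0.887 to 0.931 in wild-type libraries, while that of Bcl2 to Bcl2l1 was 0.989 to 2.24 in knockout and 2.51 to 3.02 in wild-type libraries. The ratios computed without Bcl2 overlapped between genotypes, with Bak1 to Bax as given above, Mcl1 to Bcl2l11 at 23.0 to 28.5 in knockout and 24.3 to 29.5 in wild-type libraries, and Pmaip1 to Bbc3 at 1.21 to 1.85 in knockout and 1.36 to 2.32 in wild-type libraries.

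Around the family, 7 lists of death pathway genes were read in the same fit. Of their 64 tested genes, 13 passed (20.3%, against 15.5% of all genes tested), 11 higher and 2 lower in knockout libraries. In the fit of protein-coding genes alone, 18.9% of all genes passed. Among 11 tested genes of the wider BCL2 family, 3 rose and none fell (median log2 fold change 0.27). They were Bcl2l13, a mitochondrial BCL2-like protein gene, at 80.7 ± 11.9 CPM in knockout and 56.8 ± 0.615 CPM in wild-type libraries (adjusted p = 0.0237), Bcl2l14, by 1.00 on the log2 scale, and Bad, a BH3-only gene under growth factor control, by 0.39 (adjusted p = 0.0492). Bad lost its call in 12 of 20 alternatives, among them each single library left out other than knockout replicate 3. Bcl2l13 lost it in 7, without knockout replicate 2 or any 1 wild-type library among them, and Bcl2l14 in 6, without knockout replicate 1 or 2 or wild-type replicate 2 or 3 among them.

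Of 11 genes of the apoptosome and the caspases, 3 rose and none fell (median log2 fold change 0.34). Htra2, a mitochondrial protease released during death, was at 84.0 ± 6.81 CPM in knockout and 54.9 ± 4.83 CPM in wild-type libraries (log2 fold change 0.61, SE 0.10, adjusted p = 0.00611). Aifm1, a flavoprotein of the mitochondrial intermembrane space, was at 53.9 ± 5.18 CPM in knockout and 37.4 ± 1.26 CPM in wild-type libraries (log2 fold change 0.53, adjusted p = 0.0106). Apaf1, the scaffold of the apoptosome, rose by 0.44 (adjusted p = 0.0364) and lost its call in 8 of 20 alternatives, without knockout replicate 2 or any 1 wild-type library among them. In the list named mitochondrial partners of BAX and BAK, 2 of 8 genes rose and none fell (median 0.28). Vdac1, the main channel of the outer membrane, was at 152 ± 10.2 CPM in knockout and 105 ± 8.30 CPM in wild-type libraries (adjusted p = 0.00751), and Vdac2, known to bind BAK, rose by 0.39 (adjusted p = 0.0378, lost in 10 of 20 alternatives, including each single library left out other than knockout replicate 3). Erythroid markers rose in the same libraries, 10 of 10, with a median log2 fold change of 3.57.

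Of 8 caspase inhibitor genes 1 rose and 1 fell (median log2 fold change -0.10). Birc5, which encodes survivin and acts in cell division, rose by 0.62 (adjusted p = 0.0216) and Birc6, a large ubiquitin ligase, fell by 0.45 (adjusted p = 0.0264). Birc5 lost its call without wild-type replicate 1, 2 or 3 and Birc6 in 6 of 20 alternatives, without knockout replicate 2 or 4 or wild-type replicate 1 or 3 among them. None of 9 genes of death receptors and their adaptors passed in edgeR (median 0.11). An unadjusted p under 0.05 was reached by 3 of them, and by 31.8% of all genes tested. Of the 9, Tnfrsf1a, a tumour necrosis factor receptor, had the smallest p, at a log2 fold change of 0.52 (adjusted p = 0.0551, under 0.05 in 7 of 20 alternatives, DESeq2 among them). Of 11 tested genes of p53 and its targets 1 rose and 1 fell (median -0.12). Cdkn1a, the cell cycle inhibitor p21, was at 29.3 ± 2.92 CPM in knockout and 14.6 ± 2.31 CPM in wild-type libraries (adjusted p = 0.00333), while the p53 targets Bbc3 and Pmaip1 had log2 fold changes of -0.12 and -0.44 that did not pass. Trp73, a p53 relative, fell by 1.39 at low levels (0.663 ± 0.268 CPM in knockout and 1.75 ± 0.522 CPM in wild-type libraries, adjusted p = 0.0382, lost in 8 of 20 alternatives, including each single library left out other than knockout replicate 4). Of 6 genes that act on MCL1 turnover 1 rose and none fell (median -0.08). Cdc20, an activator of the anaphase-promoting complex, rose by 0.58 (adjusted p = 0.0384, lost in 7 of 20, including without knockout replicate 2 or 4 or wild-type replicate 1 or 2).

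**Figure D5:**
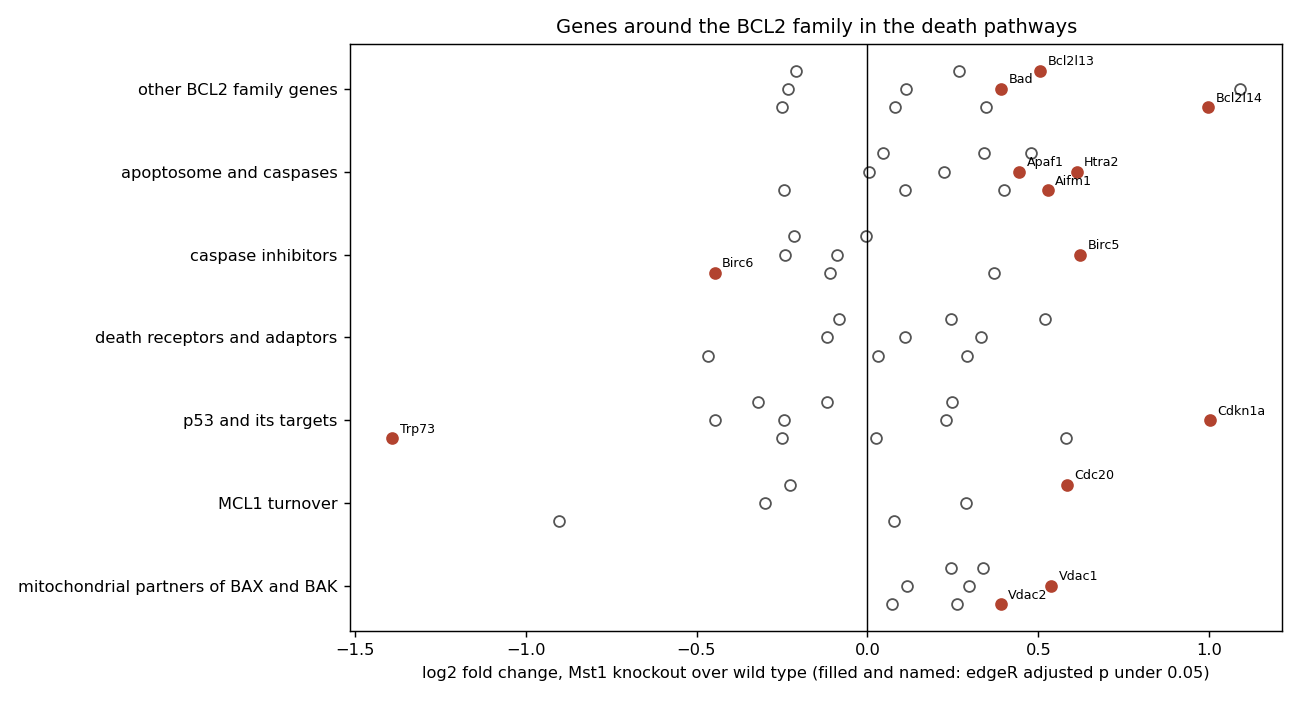
Log2 fold change, knockout over wild type, of the tested genes of 7 lists around the BCL2 family, one row per list; filled and named points have an edgeR adjusted p under 0.05, and the vertical offset within a row has no meaning. Of the 13 named genes, 11 lie to the right of 0, and Birc6 and Trp73 to the left.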

How the data were processed

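RNA was measured by bulk sequencing in 4 libraries labelled Mst1 knockout and 3 labelled WT; kits were a Qiagen RNA kit and an NEBNext Ultra library kit, per the labels' protocols. The deposited table holds whole-number read counts per gene, with no normalization, per the file headers. The deposited FPKM are the same counts per gene length, scaled by a constant in each library. A deposited comparison by the authors holds, per the file headers, p-values raw and adjusted, log2 fold changes and a mean normalized count of either side. These sides, coded VPA and VPC, matched the normalized means of the knockout and of the wild-type libraries. Per the submitters' processing notes the genome build was GRCm38 (mm10). Aligner, counter, strand setting and the authors' test are not given in the sources used here. For the members, the deposited fold changes and p-values were close to those of the DESeq2 fit made here.

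Counts were fitted with edgeR 4.0.16 (R 4.3.3): TMM, filterByExpr, robust quasi-likelihood F-test, genotype as the only term, all 7 libraries, Benjamini-Hochberg over 15795 genes, called at an adjusted p under 0.05. Fold changes are knockout over wild type; 95% intervals are for single genes. Single values were compared with two-sided exact permutation tests. Alternatives were DESeq2 1.42.0, limma-voom with sample quality weights (limma 3.58.1), other scalings and filters, FPKM on the log2 scale (pseudocount 1 or 0.1), a replicate block, protein-coding genes alone, each library left out, and, added after the data were seen, knockout replicate 4 and wild-type replicate 1 left out together. The edgeR step was tested on simulated data. Members, pathway lists and marker lists were chosen with earlier results of these data known. All members were named; of each list the called genes (at most 6), or that with the smallest p. An item of the pathway lists is not reported here. No pair of libraries agreed within sampling noise (chi-square per degree of freedom at least 21.7). Promoters are from RefSeq (GRCm38.p6) and transcripts from GENCODE M21.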

Additional observations from a re-analysis of the deposited data

Results flagged for a closer look

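In the 4 knockout libraries, 2 of 24 named genes had a library far from the others by Dixon's test, where chance flags about 1 in 20 groups, and none of the 10 members did. Trp73 was at 1.06 CPM in knockout replicate 4 and at 0.50 to 0.56 CPM in the other knockout libraries. Vdac2 was at 178 CPM in knockout replicate 3 and at 220 to 227 CPM in the others. The 3 wild-type libraries are too few for this test.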

How the results depend on the processing

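Over 20 alternatives, 181 of 200 values of the 10 members kept their direction and their side of the threshold, 8 passed it and 11 turned sign. Members called, 0 as reported, were 2 with limma-voom with sample quality weights, and 1 with library total scaling, no filter, DESeq2, the replicate block or protein-coding genes alone, and 0 to 1 when single libraries were left out (1 without knockout replicate 3). Calls across all genes, 2455 as reported, were 3908 with limma-voom with those weights, 1050 to 2553 without single libraries (1326, 1050 and 1161 without wild-type replicates 1, 2 and 3, and 1384 without knockout replicate 2) and 1599 without knockout replicate 4 and wild-type replicate 1 together; with the replicate block they were 2119. Same-numbered libraries showed little shared deviation (r = -0.048, 0.025 and 0.158), and not every library correlated best with its own number. A pairing by number was thus not shown, and so few libraries cannot settle whether there is one. The block turned Bcl2l11 to 0.039 and Bbc3 to 0.0097, and called Bak1 (adjusted p = 0.0258). Bcl2l11 also turned to 0.011 with library total scaling, 0.00077 with no filter, 0.00071 and 0.0015 on log2 FPKM with pseudocounts of 1 and 0.1, and -0.10 to 0.14 without single libraries. Bbc3 ran from -0.27 to 0.026 without single libraries and was 0.018 without knockout replicate 4 and wild-type replicate 1 together. For 14 other named genes, 206 of 280 values stayed on their side, 67 lost the call and 7 gained it. The cause of these shifts was not tested. Counts limit Bcl2a1b most, at 28 to 114 reads per library.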
